A study of Mus musculus with 10 samples.

Results

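Aquaporins are membrane channels through which water, and in some members glycerol, crosses the cell membrane. The data described here are the levels of Aqp1, Aqp4, Aqp5 and Aqp11 in the old mouse inner ear. These 4 genes were chosen by symbol from the 12 aquaporin genes among the 32285 genes of the deposited tables, and were followed across the cell populations of the cochlea, the organ of hearing, and the vestibule, the organ of balance. The samples were 10 droplet-based 3′ single-cell RNA-seq libraries made from wild-type CBA/J mice aged 22 months, with 5 libraries per organ. CBA/J is an inbred strain that keeps its hearing until late in life. Each library pooled the dissected organs of several animals, so a library mixes animals and no value belongs to 1 mouse. The labels give the tissue as sensory epithelium from dissected whole organs. Hair cells, which express Myo7a and Pou4f3, made up 222 of the 7272 cochlear and 2001 of the 10424 vestibular cells analysed, beside supporting, lining, stromal, blood and immune cells. No agent was given, ageing being the only treatment that the labels name, and no young animals were analysed here, so no value bears on age.

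In each organ, replicate 2 held the same cells as replicate 1. All 1313 barcodes of cochlear replicate 2 and 1633 of those of vestibular replicate 2 stood also in replicate 1, and the summed counts lay closer together than sampling noise would put 2 libraries (chi-square divided by its degrees of freedom, 0.142 and 0.121). They were counted as 1 sample, which left 4 libraries per organ, numbered 1, 3, 4 and 5. The other pairs of libraries shared 0 to 41 barcodes. The 8 libraries held 2738036 to 26974948 unique molecular identifiers (UMIs, each counted as 1 captured transcript) and 571 to 5438 cells that passed the filters, with a median of 1889 to 3298 UMIs per cell. In all, 7272 cochlear and 10424 vestibular cells were kept. Replicate 3 gave 5070 of the cochlear and 5438 of the vestibular cells. The cells fell into 29 cochlear and 32 vestibular clusters, found without the aquaporin genes. Of these, 20 and 25 were named from marker lists, and the others are called by 2 leading genes. Levels are given as CPM, the UMIs of a gene in a cell population of 1 library per 1000000 UMIs of that population. A library entered a population where it held at least 10 of its cells.

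Aqp1 is the classical water channel of red blood cells and several epithelia and Aqp4 that of astrocytes, where it is held in the membrane by the dystrophin-associated complex. Aqp5 is known from the apical membrane of secretory glands and lung, and Aqp11 is a distant member that is found largely inside the cell, at the endoplasmic reticulum. In the inner ear, the fluids on either side of the sensory epithelium differ in their ions, and supporting cells, fibrocytes and the epithelium that lines the fluid spaces are known as the places where water channels lie.

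The family carries a pair of short asparagine-proline-alanine (NPA) boxes that line the pore. The coding sequence around the first box is shown for 3 of the genes because it sets the distant member apart from the classical ones. Each line is read 5′ to 3′ on the coding strand of the mouse build GRCm38 with the GENCODE M21 annotation, and the capitals mark the 3 codons of the box.
Aqp1, chr6:55336707-55336736, plus strand, exon 1, box from residue 76 of 269: gctcacctcAACCCTGCGgtcacactgggg
Aqp5, chr15:99591467-99591496, plus strand, exon 2, box from residue 69 of 265: ggccacatcAATCCGGCCattactctggcc
Aqp11, chr7:97737673-97737702, minus strand, exon 1, box from residue 99 of 271: acagctagcAACCCGTGCggcgtgatgatg
The last codon of the box reads alanine in Aqp1 and Aqp5 and cysteine in Aqp11. On the same build Aqp1 spans chr6:55336432-55348555 with 4 exons, Aqp5 spans chr15:99590782-99594829 with 5 exons and Aqp11 spans chr7:97724006-97738289 with 3 exons. None of the 3 overlaps another annotated gene.

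Aqp4 lies on the minus strand of its chromosome with 8 exons, and the antisense gene AC133525.2 overlaps it on the other strand.

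Aqp11 was found in most outer hair cells (OHCs), the cells that amplify sound in the cochlea. The OHC cluster held 76 cells, led by Ocm, Slc26a5 (prestin, the motor protein of OHCs) and Chrna10. Aqp11 stood at 616 CPM in replicate 1, 1023 in replicate 3 and 874 in replicate 5 (mean 838 ± 206, SD, n = 3), while replicate 4 had too few OHCs to enter. At least 1 Aqp11 UMI was counted in 65 of the 76 cells, or 85.5% (95% exact binomial interval 75.6 to 92.6%), and in 19 of the 26 of replicate 1. The 2 cells with the most UMIs gave 8.72% of the 218 UMIs, so the level did not rest on single cells. Inner hair cells (IHCs), which pass sound on to the nerve, held 14.0, 28.2, 22.7 and 18.8 CPM in replicates 1, 3, 4 and 5 (20.9 ± 6.02, n = 4). All OHC libraries lay above all IHC libraries, although the IHCs held more UMIs per cell (median 9680 against 2762). When each cell was thinned to 1000 UMIs, 57.9% of OHCs and 2.05% of IHCs kept an Aqp11 UMI. In cochlear macrophage-like cells, where little aquaporin would be looked for, 1.03% of 388 cells held one at a median of 2400 UMIs. Intervals and limits from a count cover counting error only. The types were found by clustering, so differences between them are described and carry no test.

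Vestibular hair cells (HCs) had lower Aqp11 levels than the cochlear OHCs. Over all 2001 vestibular HCs the level was 20.6, 14.1, 19.8 and 19.3 CPM in replicates 1, 3, 4 and 5 (18.4 ± 2.96, n = 4). The Ocm Gbx2 Calb1 cluster (347 cells), which carries the type I marker Pvalb, stood at 40.0, 42.05, 34.6 and 44.8 CPM (40.4 ± 4.34). The Thsd7b Rasd2 cluster (321 cells), which carries the type II marker Calb2, stood at 6.04, 4.30, 37.0 and 15.7 CPM (15.7 ± 15.01). The remaining 1333 HCs, which the marker rule did not place in a type, stood at 13.5 ± 4.12 CPM. They were made of the Mgat4c Bpifa5 (7.41 ± 1.68 CPM), Myh13 Car12 (18.1 ± 9.14 CPM, with the type I marker Adam11 among its leading genes) and Fndc1 Gm45261 clusters (24.1 ± 20.5 CPM, with 54.5 CPM in replicate 1). The libraries of the Ocm Gbx2 Calb1 cluster overlapped those of the Fndc1 Gm45261 and Thsd7b Rasd2 clusters, so no order of type I and type II HCs is given. IHCs lay below the Ocm Gbx2 Calb1 cluster and overlapped the Thsd7b Rasd2 cluster.

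**Figure D1:**
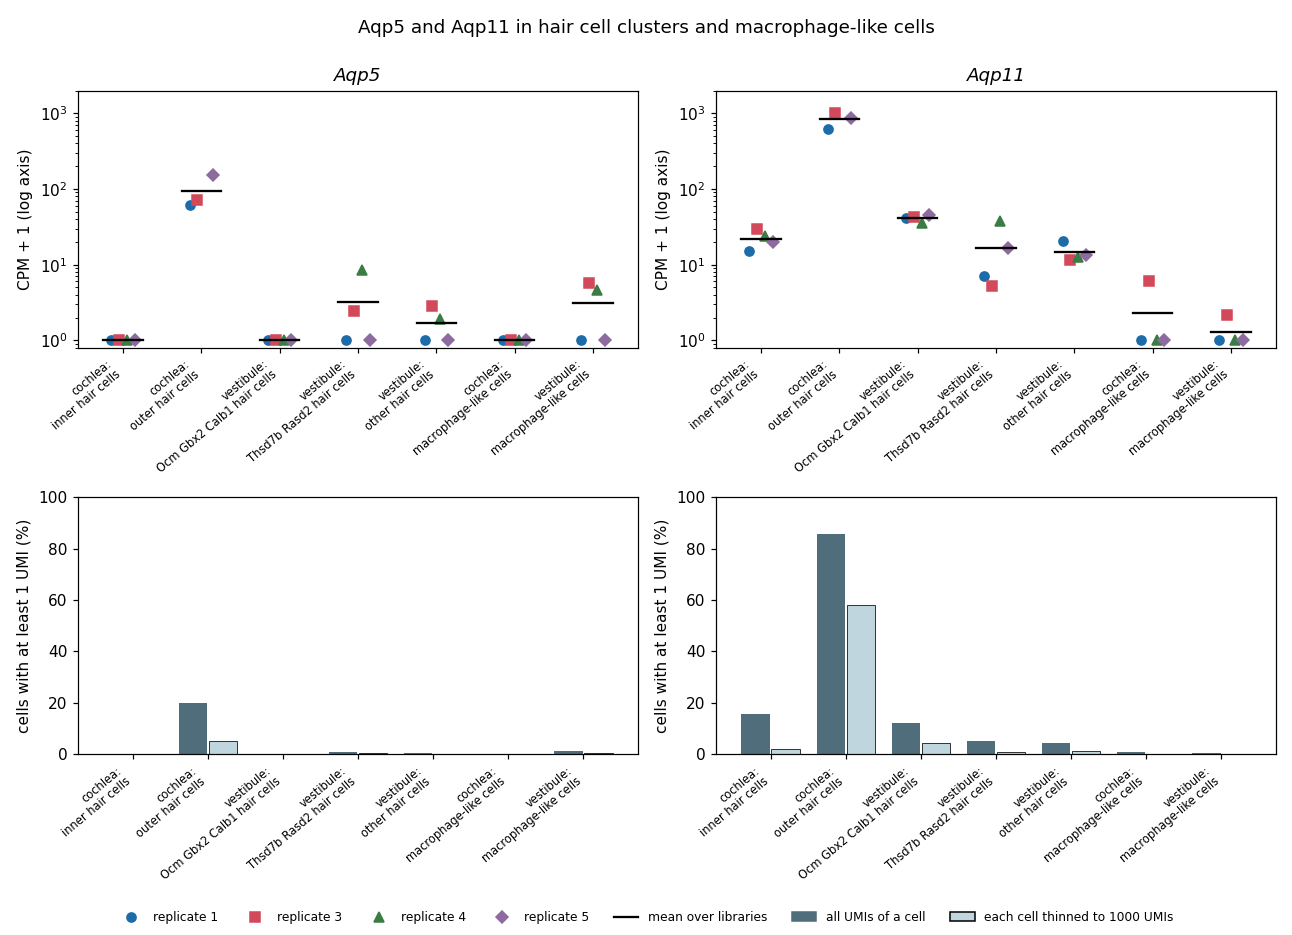
Top, Aqp5 and Aqp11 levels (CPM + 1, log axis) in hair cell clusters and, as a background, macrophage-like cells, with 1 point per library and a bar at the mean. Bottom, the percentage of cells with at least 1 UMI, before (dark) and after (light) thinning each cell to 1000 UMIs; Aqp11 was counted in 85.5% of OHCs and Aqp5 in 19.7%.

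In the cochlea, the Pcdh17 Agr2, Epyc Mia and Gm48242 Fbp2 clusters, which no marker list named, and the Tnnt2 supporting-like cells held the next highest Aqp11 levels. The Pcdh17 Agr2 cells (280 cells, leading genes Agr3, Hey2 and Vldlr also) stood at 309.5, 379.0, 333.9 and 423.0 CPM (361 ± 50.1, n = 4), with a UMI in 78.2% of cells at a median of 7023 UMIs and in 32.1% after thinning. Their libraries lay above those of the Epyc Mia, Gm48242 Fbp2 and Tnnt2 supporting-like cells. The Epyc Mia cells (129 ± 10.4 CPM, n = 4), the Gm48242 Fbp2 cells (112 ± 24.3, n = 4) and the Tnnt2 supporting-like cells (94.1 ± 10.8, n = 3) had lower levels. The Gm48242 Fbp2 cells overlapped both of the other two.

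The Slitrk6 supporting-like cells, which carry the supporting cell markers Slitrk6, S100a1 and Ceacam16, held 79.9, 77.0, 58.6 and 64.2 CPM of Aqp11 (69.9 ± 10.2, n = 4). They were made of clusters that differed. The larger one (689 cells, led by Dgkb, Eva1a and Slitrk6) stood at 40.9 ± 7.42 CPM and the smaller one (133 cells, led by Tectb, Odf3l2 and Plbd1, with Fgfr3 in the list) at 229.9, 215.0, 98.6 and 331.5 CPM (219 ± 95.4). In replicate 5 the smaller cluster lay inside the range of the Pcdh17 Agr2 cells. Fibroblast-like cells of the cochlea followed at 72.6, 28.7, 63.6 and 45.5 CPM (52.6 ± 19.5), and overlapped the Slitrk6 supporting-like cells. Fibrocyte-like cells, a stromal class named from marker genes, stood at 15.9, 21.6, 24.2 and 20.4 CPM (20.5 ± 3.45). Of their clusters, only that led by Fxyd2 and Gm525 (302 cells) had the fibrocyte markers Otos and Car3 enriched. Those led by Rarres1 and Otor (657 cells) and by Corin and Otor (231 cells) were named from Coch, Otor and Pou3f4, the latter also from Tbx18.

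In the vestibule, every Aqp11 library of the supporting-like, fibroblast-like and fibrocyte-like cells lay below those of the pooled HCs. The Mgat4c Bpifa5 HCs, taken alone, had a mean no higher than that of the fibroblast-like cells. The Ccl11 Osr2 cells held 53.0, 48.8, 19.7 and 20.7 CPM (35.6 ± 17.8, n = 4) and overlapped the Ocm Gbx2 Calb1 HCs. Supporting-like cells stood at 5.44, 7.83, 4.44 and 5.15 CPM (5.72 ± 1.47), fibroblast-like cells at 7.78 ± 1.82 CPM and fibrocyte-like cells at 3.91 ± 3.54 CPM. These 3 populations overlapped one another. The marginal and dark-like cells, the ion-pumping epithelium marked by Kcne1 and Kcnq1, had no UMI of any of the 4 genes in 128 cells, which allows a share of up to 2.34%.

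**Figure D2:**
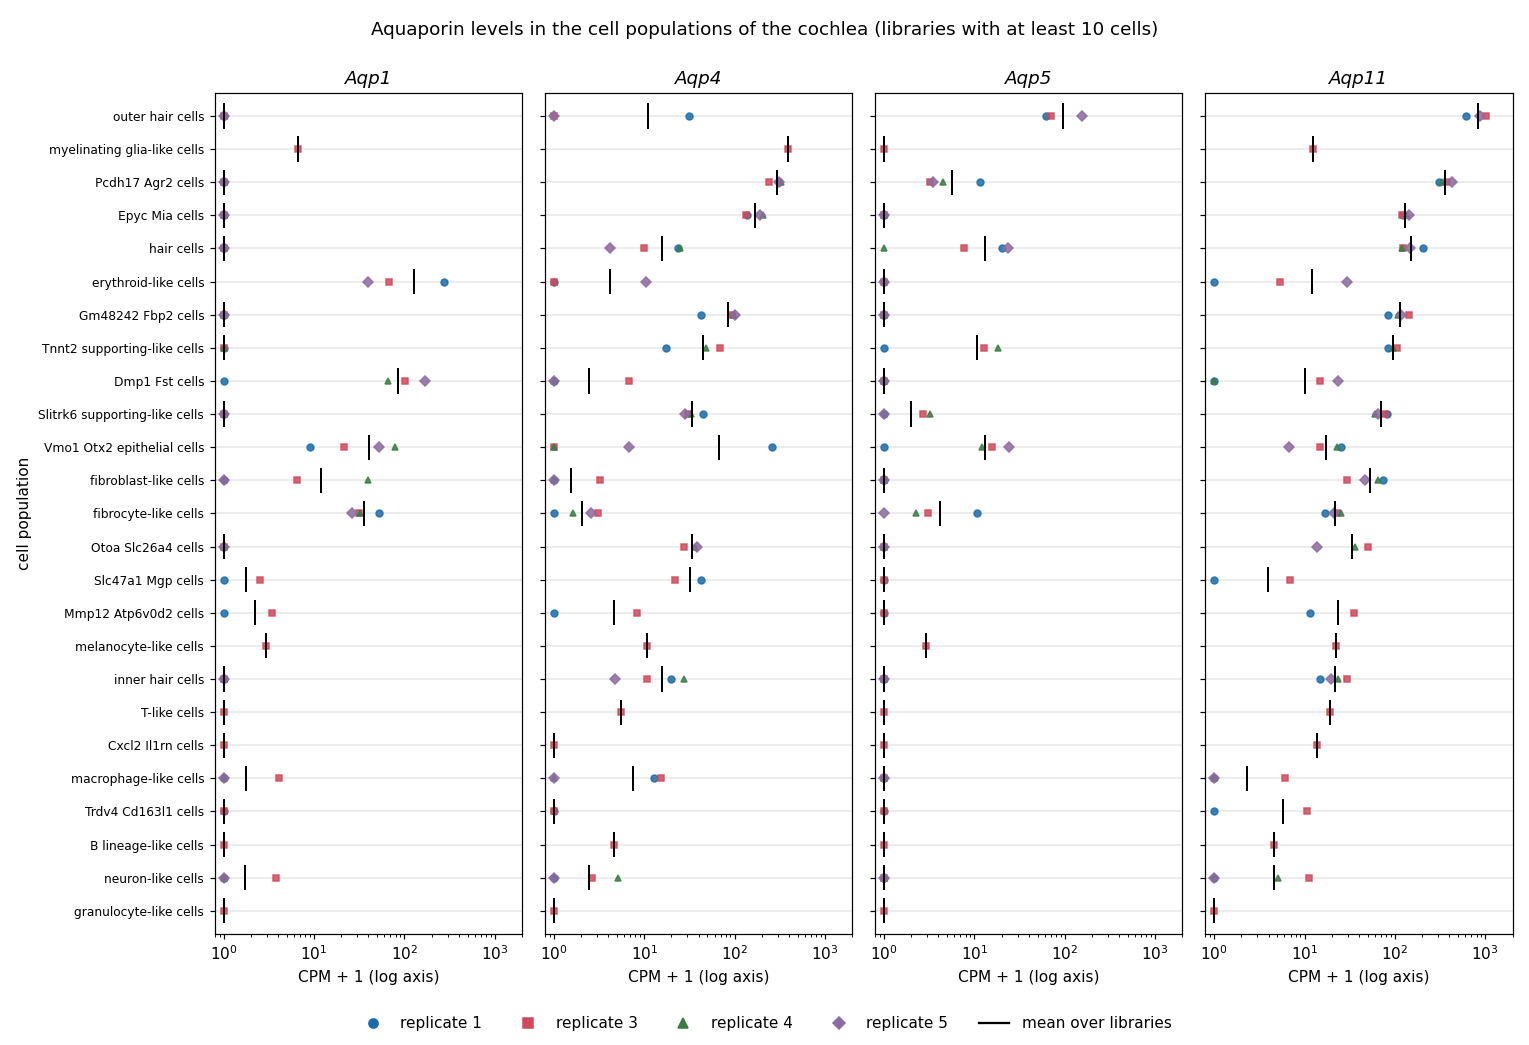
Levels of the 4 aquaporins in cochlear cell populations, as CPM + 1 on a log axis, with 1 point per library that held at least 10 of the cells and a bar at the mean. Aqp11 is highest in OHCs and Pcdh17 Agr2 cells, Aqp4 in the myelinating glia-like cells of 1 library and in Pcdh17 Agr2 cells, and Aqp5 in OHCs.

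Aqp4 was found in the unnamed Pcdh17 Agr2, Epyc Mia and Gm48242 Fbp2 clusters of the cochlea and in its supporting-like cells. The Pcdh17 Agr2 cells held 309.5, 238.6, 321.6 and 307.8 CPM (294 ± 37.7, n = 4), with a UMI in 195 of 280 cells (69.6%, 27.1% after thinning). The Epyc Mia cells stood at 136, 132, 205 and 192 CPM (166 ± 37.7), below every library of the Pcdh17 Agr2 cells. The Gm48242 Fbp2 cells followed at 41.4, 92.5, 97.5 and 100.4 CPM (82.9 ± 27.9), again with no overlap. After these came the Tnnt2 supporting-like cells (44.3 ± 26.2 CPM, n = 3), the Otoa Slc26a4 cells (33.2 ± 5.66, n = 3) and the Slitrk6 supporting-like cells at 43.6, 29.5, 31.5 and 27.2 CPM (32.9 ± 7.30, n = 4). Those 3 overlapped one another, and the Tnnt2 and Slitrk6 supporting-like cells also overlapped the Gm48242 Fbp2 cells. Cochlear HCs stood at 14.6 ± 10.2 CPM, and 7.66% of 222 HCs had a UMI against 3.87% of the macrophage-like cells, at a median of 5402 and 2400 UMIs. After thinning, the HC share was 0.450% and the macrophage share 1.55%, so the HC share was not above that background, though both rest on few cells. The macrophage-like cells stood at 6.52 ± 7.61 CPM, and their libraries overlapped those of the HCs.

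In single cells Aqp4 and Aqp11 were found together. Of the 195 Pcdh17 Agr2 cells with Aqp4, 168 also had Aqp11 (86.2%, against 78.2% of all cells of the cluster). In the Gm48242 Fbp2 cells the share was 66.4% against 54.2%, and in the Slitrk6 supporting-like cells 43.4% against 17.2%. Cells with more UMIs are likelier to show both genes, and the part of depth in these shares was not tested.

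Cochlear Aqp4 had further sources that rest on few cells or on 1 library. Myelinating glia-like cells stood at 394 CPM in replicate 3, the only library with enough of them. All 77 Aqp4 UMIs of the class came from 11 of 58 cells. The class was led by Klk6, Mog and Hapln2, genes of oligodendrocytes, the myelinating cells of the brain. Of the 11 cells with Aqp4, 7 had Gfap, 7 Gja1, 8 Slc1a2 and 9 Slc1a3, all known from astrocytes. Of the 47 cells without Aqp4, 4 had Gfap, 1 Gja1, 7 Slc1a2 and 12 Slc1a3. The other 2 astrocyte genes counted differed less, with Aldoc in 45.5% against 34.0% and S100b in 81.8% against 76.6% of the cells with and without Aqp4. In the Vmo1 Otx2 epithelial cells, Aqp4 stood at 259.7, 0, 0 and 5.72 CPM in replicates 1, 3, 4 and 5, and 7 of the 8 cells with a UMI came from the 37 of replicate 1. The mean of 66.4 CPM was 1.91 CPM without replicate 1, and at clustering resolution 2 the level of the class was 0.

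In the vestibule, Aqp4 marked the supporting-like cells. They stood at 62.6, 48.1, 55.4 and 77.3 CPM (60.9 ± 12.4, n = 4), with a UMI in 15.3% of 556 cells, while none of 366 macrophage-like cells had one, which allows a share of up to 0.820% at a median of 2766 against 2172 UMIs. The clusters of the class, led by Gm13782, Slc6a14 and Cox4i2 and by Hhla1, Zpld1 and Slc18a2, stood at 59.7 ± 10.7 CPM (n = 4) and 58.2 ± 10.3 CPM (n = 3). The Abca13 Slc26a4 cells, an epithelium with the anion exchanger pendrin among its leading genes, stood at 58.1, 29.2, 42.8 and 14.3 CPM (36.1 ± 18.7) and overlapped the supporting-like cells. A cluster with markers of both hair and supporting cells, the mixed Tectb Corin cells, stood at 27.2 ± 9.94 CPM at a median of 11337 UMIs per cell. Vestibular HCs were at 3.32 ± 0.805 CPM, below every library of those populations.

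The highest vestibular Aqp4 and Aqp5 levels came from cells of replicate 3. The AU040972 Ccdc153 cells, of which 103 of 107 were from that library, held 447 CPM of Aqp4 and 79.0 CPM of Aqp5. Of their 43 cells with Aqp4, 33 had Foxj1 and 42 Ccdc153, genes of motile ciliated cells. Of the 64 cells without Aqp4, 42 had Foxj1 and 52 Ccdc153. The Bpifa1 Cxcl5 cells, all 137 from replicate 3, held 203 CPM of Aqp4 and 416 CPM of Aqp5. Of the 43 cells with Aqp5, 41 had Bpifa1, a secreted protein known from the airway, and none had Scgb1a1, the marker of club cells. Of the 94 cells without Aqp5, 78 had Bpifa1 and none Scgb1a1, so these genes mark the cluster as a whole. Aqp4 and Aqp5 met in the same Bpifa1 Cxcl5 cells, since 29 of 36 cells with Aqp4 also had Aqp5 (80.6%, against 31.4% of the cluster). These levels have no replicate.

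**Figure D3:**
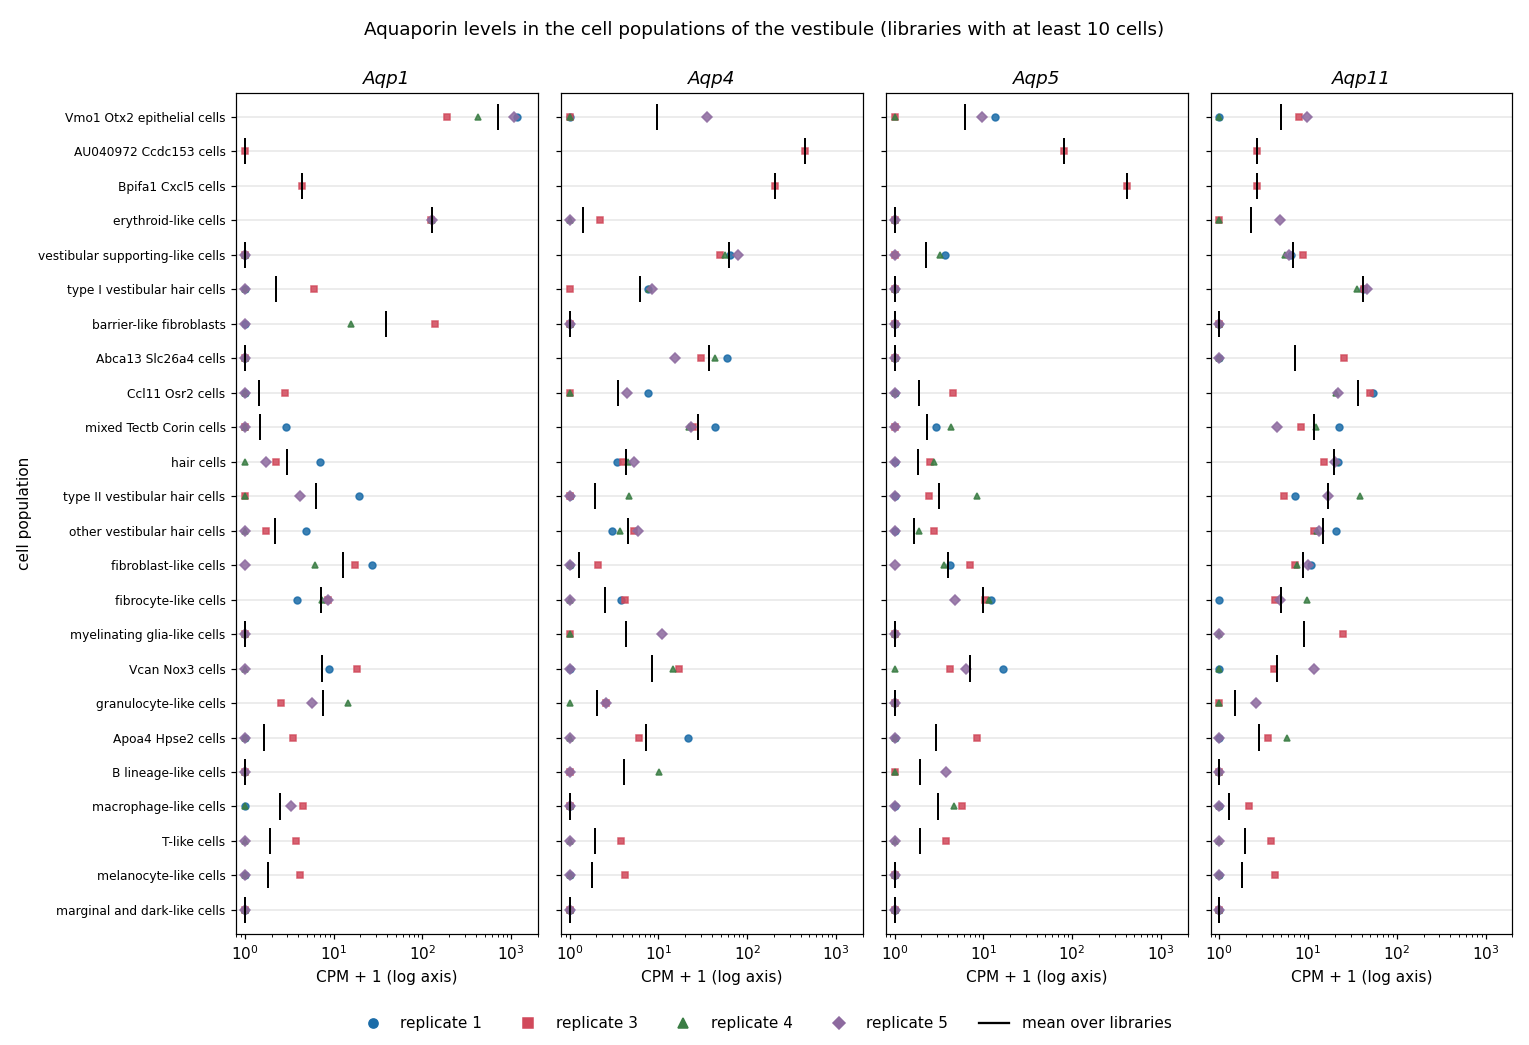
Levels of the 4 aquaporins in vestibular cell populations, as CPM + 1 on a log axis, with 1 point per library that held at least 10 of the cells and a bar at the mean. Aqp1 is highest in Vmo1 Otx2 epithelial cells (187 to 1156 CPM), and the highest Aqp4 and Aqp5 levels are those of the AU040972 Ccdc153 and Bpifa1 Cxcl5 cells, of which only replicate 3 held at least 10.

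Aqp5 had few counts, 76 UMIs in the cochlea, the fewest of the 4 genes there, and 386 in the vestibule over all kept cells. In OHCs it stood at 60.6, 69.8 and 153 CPM in replicates 1, 3 and 5 (94.4 ± 50.9, n = 3), from 19 UMIs in 15 of 76 cells (19.7%, 95% exact binomial interval 11.5 to 30.5%). No Aqp5 UMI was found in 146 IHCs, which allows a share of up to 2.05%, nor in 388 cochlear macrophage-like cells. All 15 OHCs with Aqp5 also had Aqp11, as did 85.5% of all OHCs. No library of another cochlear population that entered reached the OHC range. The 8 OHCs of replicate 4 had no Aqp5 UMI. Thinning left 5.26% of OHCs with a UMI.

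Elsewhere Aqp5 was sparse. The cochlear Vmo1 Otx2 epithelial cells held 0, 14.9, 11.1 and 22.9 CPM (12.2 ± 9.51, n = 4) and the Tnnt2 supporting-like cells 9.65 ± 8.73 CPM (n = 3), and the ranges overlapped. Fibrocyte-like cells stood at 9.56, 2.06, 1.24 and 0 CPM in the cochlea and 11.3, 9.56, 10.7 and 3.86 CPM in the vestibule. The Ocm Gbx2 Calb1 HCs of the vestibule had no UMI in 347 cells, which allows a share of up to 0.865%.

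Aqp1 had its highest level in the vestibular Vmo1 Otx2 epithelial cells, a cluster of 77 cells. The cluster was named from Vmo1, Slc26a7 and Otx2, 3 of the 6 markers on a list of lining epithelium. Oc90, Clic6 and Nox3 of that list were not enriched. Aqp1 stood there at 1156, 187, 422 and 1081 CPM in replicates 1, 3, 4 and 5 (712 ± 480.5, n = 4). A UMI was found in 38 cells (49.4%, 95% exact binomial interval 37.8 to 61.0%), of which 9 of 15, 7 of 23, 6 of 13 and 16 of 26 cells came from the libraries in turn. Thinning left 37.7%. The level was uneven, as 2 cells held 99 of the 259 UMIs. In vestibular macrophage-like cells 0.820% of cells had a UMI, at a median of 2766 against 2262 UMIs. Because the choroid plexus, the brain epithelium that makes cerebrospinal fluid, also expresses Aqp1 and Otx2, its genes were counted in the 38 cells. Folr1 was found in 0, Kl in 2, Clic6 in 1 and Ttr in 23 of them, and Ttr in 7 of the 39 cells without Aqp1. Clic6 is also on the lining list, so its count does not tell these epithelia apart. The part of choroid plexus cells in the level was not tested.

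In the cochlea the cells with the same markers (385 cells) held 8.12, 20.6, 77.4 and 51.5 CPM of Aqp1 (39.4 ± 31.2, n = 4), all below the lowest vestibular library. Only 5.19% of them had a UMI.

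Aqp1 was also found in the red blood cell lineage, as is known of this gene. Erythroid-like cells held 276, 66.3 and 38.1 CPM in cochlear replicates 1, 3 and 5 (127 ± 130, n = 3) and 124, 127 and 128 CPM in vestibular replicates 3, 4 and 5 (126 ± 1.80, n = 3). Within the vestibular class the level was uneven. The cluster led by Hemgn and the histone genes Hist1h1b and Hist1h3c, a sign of dividing cells, stood at 314 ± 31.8 CPM (n = 3), and the cluster led by Slfn14, Trim10 and Slc4a1 at 58.5 ± 35.3 CPM (n = 3). Every library of the former lay above every library of the latter. The largest cluster of the class (210 cells, led by the globin genes Hba-a1, Hbb-bs and Hbb-bt) stood at 5.63, 0 and 0 CPM (1.88 ± 3.25, n = 3), so the level of the class was that of its smaller clusters.

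In the cochlear stroma, the Dmp1 Fst cells held 0, 101, 64.2 and 168 CPM of Aqp1 (83.3 ± 70.2, n = 4). Fibrocyte-like cells stood at 51.0, 30.1, 31.0 and 25.1 CPM (34.3 ± 11.4, n = 4), within the range of the Dmp1 Fst cells, with a UMI in 12.0% of 1190 cells and 3.11% after thinning, against 0.773% and 0.258% of the cochlear macrophage-like cells. Of their clusters, the one led by Rarres1 and Otor stood at 52.6 ± 42.8 CPM, the one led by Corin and Otor at 34.4 ± 4.98 CPM and the one led by Fxyd2 and Gm525 at 18.8 ± 14.8 CPM. The first and last overlapped the middle one. Aqp1 was not found in 222 cochlear HCs, 822 Slitrk6 supporting-like cells or 556 vestibular supporting-like cells, which allows shares of up to 1.35%, 0.365% and 0.540%.

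The cochlea and the vestibule were then compared, with UMIs summed per library and edgeR's quasi-likelihood test across all genes (Benjamini-Hochberg adjusted p below 0.05). A log2 difference above 0 means a higher level in the cochlea and is given with its standard error. The p-values weigh the organ difference against the spread between libraries.

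Aqp11 was higher in the cochlea in each of the 5 comparisons in which it could be tested. Over all kept cells it stood at 112, 65.1, 88.1 and 91.3 CPM in the cochlea (89.2 ± 19.2) and at 12.6, 7.94, 8.68 and 7.62 CPM in the vestibule (9.21 ± 2.30). No library overlapped, and the log2 difference was 3.25 ± 0.182 (edgeR, Benjamini-Hochberg adjusted p = 2.26e-06). In the same test 11.1% of 14530 genes were higher in the cochlea and 13.6% in the vestibule. In a sum over an organ, fewer cells of a type and less RNA per cell cannot be told apart.

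Within HCs the difference in Aqp11 was 3.05 ± 0.222 on the log2 scale (edgeR, Benjamini-Hochberg adjusted p = 1.74e-09), with cochlear HCs at 204, 123, 120.1 and 144 CPM (148 ± 39.1) and vestibular HCs at 14.1 to 20.6 CPM. Of 8937 genes tested there, 17.0% were higher in the cochlea and 20.4% in the vestibule. Without the OHC cluster the difference was 0.43 (adjusted p = 0.296), a setting added after the values were seen. Some supporting cell markers were also higher in cochlear HCs. The 7 markers of the Slitrk6 list summed to 5497 to 9197 CPM in cochlear HCs and 2489 to 4674 CPM in vestibular HCs, and 5 of 7 had the higher mean in the cochlea. S100a1 made up most of both sums (means 6272 and 3190 CPM), and Fgfr3 was at 0 in vestibular HCs. The 7 markers of vestibular supporting cells summed to 185 to 364 CPM and 156 to 217 CPM. Of these, 3 had the higher mean in the cochlea and 4 in the vestibule. In OHCs the Slitrk6 list summed to 3366 to 7920 CPM, with Slitrk6 itself at 20.7 CPM and Prox1 at 0. In IHCs, which held less Aqp11 than OHCs, it summed to 5646 to 9948 CPM (mean 7351, against 5122 in OHCs). The part of these markers in the Aqp11 difference was not tested.

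In supporting-like cells, the Slitrk6 class of the cochlea was set against the vestibular class, a comparison also added after the clusters were seen and made between classes with different marker lists. Aqp11 was higher in the cochlea there, by 3.47 ± 0.332 (edgeR, Benjamini-Hochberg adjusted p = 4.18e-08). Aqp4 went the other way in the same cells, 32.9 ± 7.30 against 60.9 ± 12.4 CPM, with no overlap of libraries and a log2 difference of -0.84 ± 0.248 (edgeR, adjusted p = 0.0133). The direction and the lack of overlap hold for the pooled Slitrk6 class. The Tnnt2 supporting-like cells, whose mean Aqp4 level was above that of the Slitrk6 class, took no part. Nor did the unnamed Pcdh17 Agr2 cells, whose Aqp4 libraries all lay above the vestibular supporting-like ones. The smaller cochlear cluster, led by Tectb, had no Aqp4 UMI in 133 cells, and the larger one, led by Dgkb, stood at 57.1, 37.2, 37.5 and 29.8 CPM, which overlaps the vestibular libraries. The share of the 6191 genes tested that was higher was 11.9% for the cochlea and 17.0% for the vestibule. The Aqp4 call was lost when cells with at least 10% mitochondrial UMIs were removed (-0.56, adjusted p = 0.319), when the filter on low counts was dropped (-0.71, adjusted p = 0.0604), and without cochlear replicate 3 (adjusted p = 0.0736) or replicate 5 (adjusted p = 0.0567).

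In stromal cells Aqp11 was higher in the cochlea in both classes and Aqp1 in fibrocyte-like cells. Aqp1 in fibroblast-like cells stood at 10.9 against 11.83 CPM (exact permutation p = 0.743). Fibroblast-like cells differed in Aqp11 by 2.11 ± 0.377 (edgeR, Benjamini-Hochberg adjusted p = 2.05e-05; 52.6 ± 19.5 against 7.78 ± 1.82 CPM). Different clusters made up the class, led by Scn7a and Ccl11 in the cochlea and by Lum and Slco1a4 in the vestibule, and 13.7% of 6072 genes were higher in the cochlea and 13.0% in the vestibule. Fibrocyte-like cells differed in Aqp11 by 1.89 ± 0.394 (adjusted p = 0.000815) and in Aqp1 by 1.77 ± 0.319 (adjusted p = 0.000178), with no overlap of libraries for either gene. Vestibular fibrocyte-like cells stood at 2.83, 7.74, 6.44 and 7.71 CPM of Aqp1 (6.18 ± 2.32). Their clusters were led by Otos and Coch, Ucma and Otor, and Gm525 and S100b. Each had Otos and Car3 enriched, as only the Fxyd2 Gm525 cluster did in the cochlea. That cluster had the lowest Aqp1 mean of the cochlear fibrocyte-like clusters, with a wide spread between libraries. The lack of overlap is that of the pooled classes, and single clusters were not compared between organs. Of 8841 genes 12.4% were higher in the cochlea and 11.1% in the vestibule.

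Aqp5 was higher in vestibular fibrocyte-like cells, with a log2 difference of -2.66 ± 0.516 (edgeR, Benjamini-Hochberg adjusted p = 0.000394). The counts behind it were 13 UMIs in the cochlea and 37 in the vestibule, and cochlear replicate 1 (9.56 CPM) lay inside the vestibular range. A UMI was found in 1.46% of the vestibular fibrocyte-like cells and in 1.37% of the vestibular macrophage-like cells (median 1465 and 2766 UMIs per cell). After thinning the shares were 0.455% and 0.546%, which rest on few cells and cannot place the level against that background. By CPM the fibrocyte-like cells stood at 8.86 ± 3.41 and the macrophage-like cells at 0, 4.69, 3.63 and 0 (2.08 ± 2.44), and the libraries overlapped.

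Aqp1 had its largest organ difference, of the tests made, in the Vmo1 Otx2 epithelial cells, where it was lower in the cochlea with a log2 difference of -4.27 ± 0.596 (edgeR, Benjamini-Hochberg adjusted p = 0.000494). Only 1.56% of the 2315 genes tested in these cells were higher in the cochlea and 1.90% in the vestibule. The direction was opposite to that in fibrocyte-like cells. The difference of the 2 organ differences was -6.55 on the log2(CPM + 1) scale (exact two-sided permutation test, p = 0.0286, the smallest p that 4 against 4 libraries allow). Adjusted over the 3 such tests made it gave 0.0857, and the pair was chosen because its directions were seen to be opposite.

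Over all kept cells Aqp1 gave 14.2 ± 1.25 CPM in the cochlea and 25.2 ± 13.2 CPM in the vestibule, and the libraries overlapped (log2 difference -0.84 ± 0.338; edgeR, Benjamini-Hochberg adjusted p = 0.103). In erythroid-like cells the means were 127 and 126 CPM and the fitted difference was -1.11 ± 0.601 (adjusted p = 0.315). Here scaling mattered, since total UMIs in place of the trimmed mean of M values (TMM) moved the median difference of all genes to 0.91. Of 3663 genes tested in these cells, 4.86% were higher in the cochlea and 1.67% in the vestibule. Leaving out cochlear replicate 1, whose level was 276 CPM, gave -2.14 (adjusted p = 0.00256). Of 15 alternatives to this test, 4 passed the threshold, the replicate number as a block among them.

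Aqp4 over all kept cells was higher in the cochlea, at 92.2, 38.7, 66.5 and 51.0 CPM (62.1 ± 23.1) against 29.7, 29.0, 8.82 and 6.40 CPM (18.5 ± 12.6). The log2 difference was 1.70 ± 0.448 (edgeR, Benjamini-Hochberg adjusted p = 0.0189). It rose to 2.56 (adjusted p = 0.000188) without the Bpifa1 Cxcl5 and AU040972 Ccdc153 cells of the vestibule, and missed the threshold without vestibular replicate 4 (1.48, adjusted p = 0.0545). Aqp5 over all kept cells stood at 3.50 ± 2.23 CPM in the cochlea and 6.32 ± 8.13 CPM in the vestibule, where replicate 3 held 18.4 CPM (-1.16 ± 0.823, adjusted p = 0.363). Without those clusters the Aqp5 difference turned to 0.36 (adjusted p = 0.655), and without vestibular replicate 3 to 0.45 (adjusted p = 0.662).

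**Figure D4:**
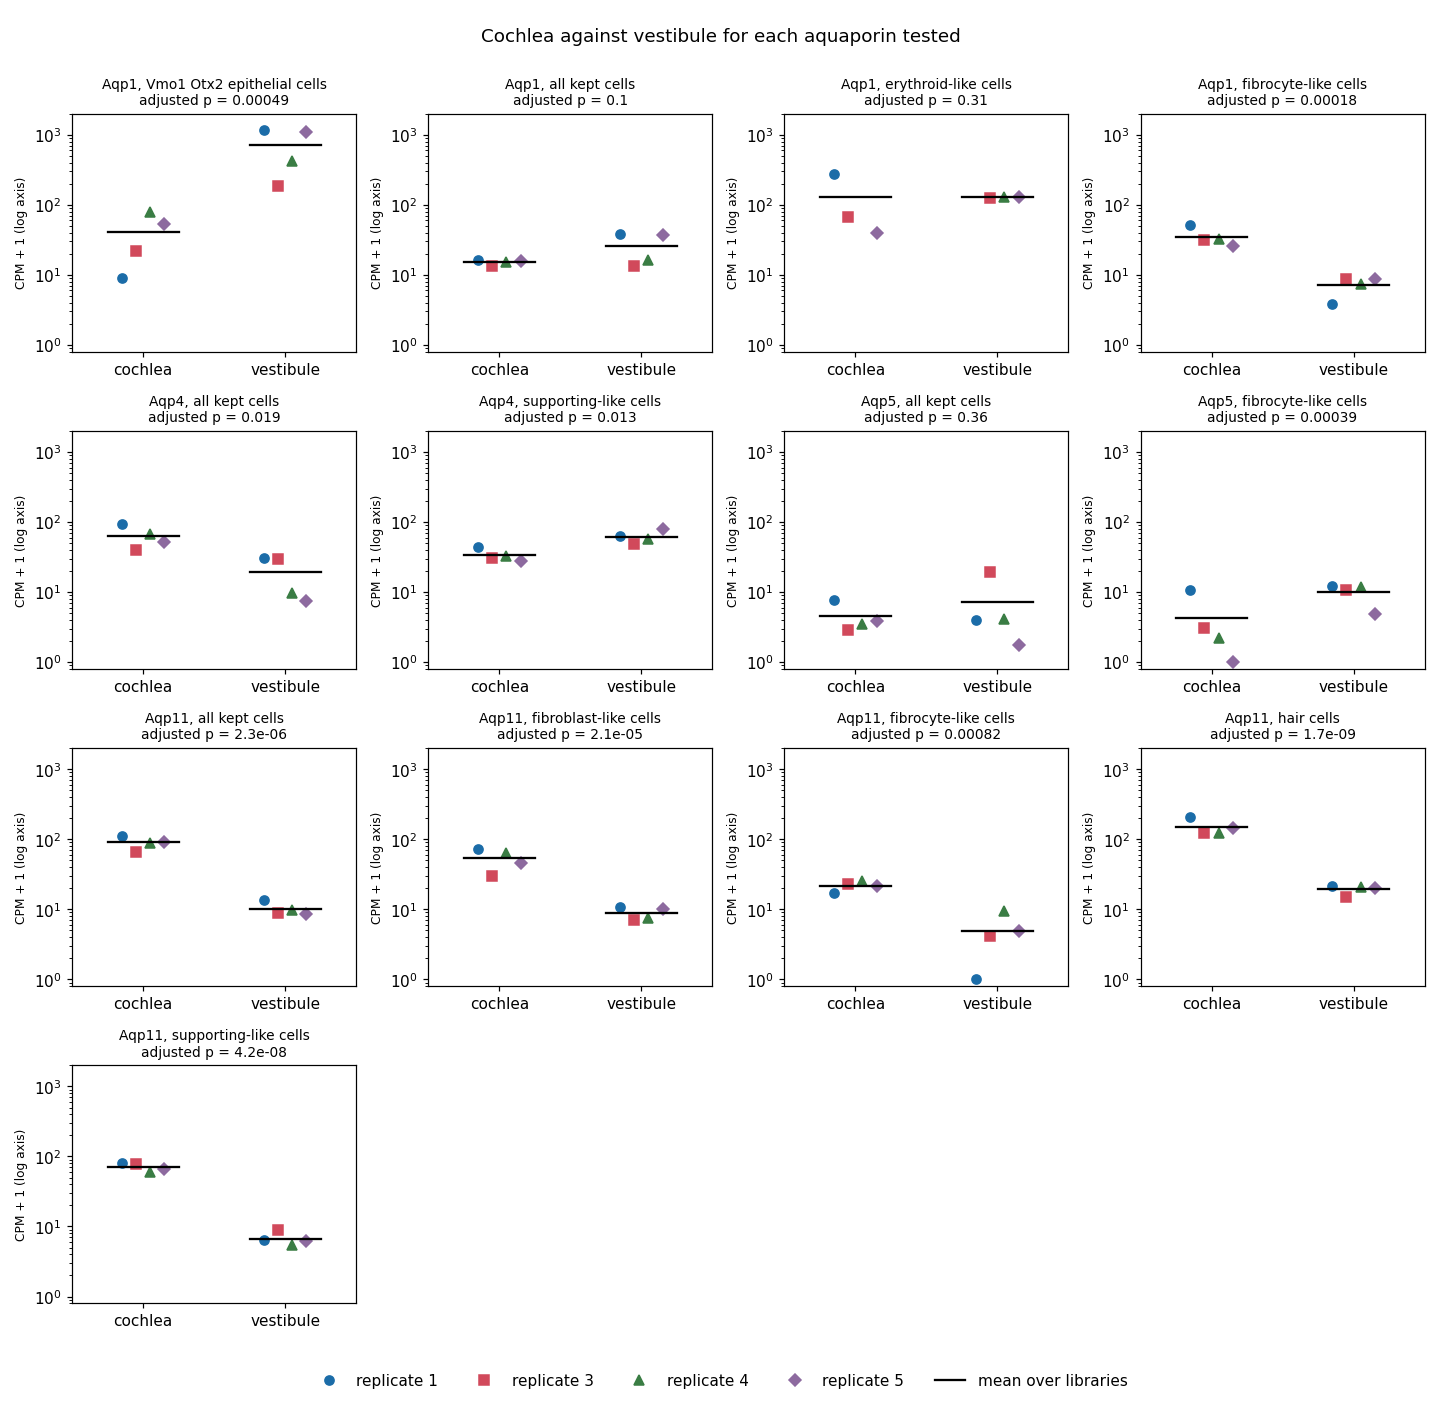
Cochlear and vestibular libraries for each of the 13 tested pairs of aquaporin and population, as CPM + 1 on a log axis, with 1 point per library, a bar at the mean and edgeR's Benjamini-Hochberg adjusted p above each panel. The Aqp11 libraries of the 2 organs do not overlap in any of the 5 Aqp11 panels, while those of Aqp5 overlap in both of its panels.

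Of 32 pairs of member and comparison, 19 did not enter the fit because of their low counts. For the 10 of these with at least 10 UMIs, an exact two-sided permutation test of log2(CPM + 1) gave p between 0.0857 and 0.914 (adjusted over the 10 tests, 0.286 to 0.914). Among them were Aqp5 in HCs (12.1 ± 10.5 against 0.819 ± 0.954 CPM, exact permutation p = 0.143) and Aqp4 in HCs (14.6 ± 10.2 against 3.32 ± 0.805 CPM, exact permutation p = 0.0857). No member had enough counts for edgeR's fit in macrophage-like cells, where Aqp4 gave 15 UMIs in the cochlea and 0 in the vestibule (exact permutation p = 0.429).

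Genes known to work with these channels were counted in the same fits. Those named were past the threshold with libraries that did not overlap, and their Benjamini-Hochberg adjusted p from edgeR ran from 1.45e-14 to 0.0180. The first list holds 11 genes of the dystrophin-associated complex and its partners, which anchor Aqp4 in the membrane. In HCs 7 were tested, of which 4 were higher in the cochlea and none in the vestibule (median log2 difference 0.54, against -0.03 over all genes tested, of which 17.0% and 20.4% were called). Sntb1, a syntrophin, stood at 61.4 ± 39.3 against 0.822 ± 0.661 CPM (5.78 on the log2 scale). Kcnj10, the potassium channel that lies beside Aqp4 in glia, stood at 81.5 ± 59.6 against 3.82 ± 1.36 CPM (4.14), and Dtna, a dystrobrevin, at 350 ± 94.4 against 129 ± 24.5 CPM (1.48). The vestibular libraries of these 3 genes lay below all cochlear ones. The summed Slitrk6 supporting cell markers were higher in cochlear HCs as well, and their part in these differences was not tested.

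In supporting-like cells the list split. Of 7 tested, 1 was higher in the cochlea and 3 in the vestibule (median -0.65, against -0.01 over all genes tested, of which 11.9% and 17.0% were called). Dmd, which encodes dystrophin, stood at 60.7 ± 6.69 against 27.7 ± 4.66 CPM (1.13). Dtna stood at 10.8 ± 2.62 against 89.7 ± 35.4 CPM (-2.89), the reverse of its direction in HCs. In fibrocyte-like cells 2 of 8 were higher in the vestibule, with Dmd at 2.99 ± 1.20 against 14.8 ± 5.60 CPM (-2.46; 11.1% of all genes were higher there). In fibroblast-like cells 1 of 4 was, namely Utrn, the dystrophin relative utrophin (-0.99; 13.0% of all genes), and over all kept cells 1 of 10, namely Dtna (-0.71; 13.6% of all genes). The last count is near the share over all genes, and the others rest on 1 or 2 genes. In the Vmo1 Otx2 cells 0 of 5 and in the erythroid-like cells 0 of 1 passed edgeR's test, with 1 and 0 at an unadjusted p below 0.05 and 0 by DESeq2 in both.

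The second list holds 17 genes of cell volume regulation, by which cells answer swelling and shrinkage. Over all kept cells 7 of 17 were higher in the cochlea and 1 in the vestibule (median 0.51, against -0.01 over all genes tested, of which 11.1% and 13.6% were called). Slc12a7, a potassium-chloride cotransporter, led the list there at 192 ± 83.9 against 17.3 ± 8.04 CPM (3.45). It was higher in the cochlea also in HCs (234 ± 118 against 6.59 ± 1.31 CPM, 5.01), in supporting-like cells (655 ± 173 against 40.7 ± 19.1 CPM, 4.10) and in fibrocyte-like cells (61.2 ± 17.6 against 3.54 ± 0.658 CPM, 3.60).

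Other members of the list were higher in the vestibule. Slc5a3, which takes up the osmolyte inositol, was lower in the cochlea in HCs (121 ± 49.1 against 340 ± 36.4 CPM, -1.44), in supporting-like cells (14.0 ± 7.80 against 180 ± 30.3 CPM, -3.53) and in fibroblast-like cells (8.60 ± 10.0 against 245 ± 32.9 CPM, -4.29). Slc12a2, the sodium-potassium-chloride importer, was lower in the cochlea in supporting-like cells (-1.79), fibrocyte-like cells (-1.84) and fibroblast-like cells (-2.03).

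The volume-regulated chloride channel subunits did not share a direction. Lrrc8b was higher in cochlear fibrocyte-like cells (285 ± 24.0 against 10.9 ± 2.05 CPM, 4.27), in fibroblast-like cells (198 ± 46.7 against 18.0 ± 3.28 CPM, 3.16) and over all kept cells (1.44), and Lrrc8c in fibroblast-like cells (2.74). Lrrc8e was higher in the cochlea over all kept cells (1.38), while Lrrc8d was lower there (-0.66) and in supporting-like cells (-1.48). Of the other genes, Slc6a6, the taurine importer, was higher in cochlear fibrocyte-like cells (177 ± 56.2 against 5.37 ± 2.37 CPM, 4.59) and HCs (2.06), the kinase Stk39 in fibroblast-like cells (2.21), and aldose reductase Akr1b3 in HCs (1.19). By count, 6 genes were higher in the cochlea and 1 in the vestibule of 14 in HCs, 1 and 3 of 13 in supporting-like cells, 5 and 3 of 15 in fibrocyte-like cells, 3 and 4 of 12 in fibroblast-like cells, and 0 and 1 of 5 in Vmo1 Otx2 cells. In supporting-like cells these counts are near the shares over all genes (11.9% and 17.0%). The shares over all genes were 17.0% and 20.4% in HCs, 12.4% and 11.1% in fibrocyte-like cells, 13.7% and 13.0% in fibroblast-like cells, and 1.56% and 1.90% in Vmo1 Otx2 cells. In erythroid-like cells 0 of 5 passed edgeR's test, with 0 at an unadjusted p below 0.05 and 0 by DESeq2.

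The genes whose levels over the 28 named classes of both organs were most like those of each member were found by Pearson's r of log2(mean CPM + 1), given as a description because classes share libraries. For Aqp11 these were Rimklb (0.83), Ppp4r4 (0.82), Skp1a (0.78), Nckap5 (0.78) and Nr2f1 (0.78), of which the first and second were highest in cochlear HCs and the others in Slitrk6 supporting-like cells. For Aqp4 they were Tmem125 (0.88), Wnt7b (0.84), Gpr179 (0.82), Acat3 (0.81) and Cblc (0.79), highest in supporting-like cells of either organ except Tmem125, which was highest in myelinating glia-like cells. For Aqp1 they were Slc25a21 (0.85), Plek2 (0.78), Pdzk1ip1 (0.77), Rsad2 (0.72) and Nxpe2 (0.67), all highest in erythroid-like cells. For Aqp5, whose highest named class held 12.2 CPM, they were Gm42696 (0.73), Reep6 (0.73), Tmem139 (0.73), Fam107a (0.71) and Lypd3 (0.71). Clusters without a name, such as the Pcdh17 Agr2, Epyc Mia and Gm48242 Fbp2 cells, took no part, and OHCs entered only within the hair cells. The class with the highest Aqp4 level, the cochlear myelinating glia-like cells, rested on replicate 3 alone.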

How the data were processed

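The authors deposited raw UMI counts per gene and cell for each library, made with Cell Ranger on mm10. The submitters' processing notes name version 6.1.2, while 5.0.1 stands in the file headers of the first and second replicates and 6.1.2 in the remaining headers. Barcodes were kept with at least 1000 UMIs, at least 200 genes and less than 25% mitochondrial UMIs, the study's limits. Each organ was clustered with Seurat 5.3.0 (2000 variable genes without the aquaporins, 30 principal components, resolution 1). A cluster was named where at least 3 markers of a list were enriched (log2 fold at least 1, in at least 25% of cells) with 1 of them among the 10 leading genes, or at least 5 without that. This rule was set after the clusters were seen. Hair cell types were named the same way within hair cells. Doublets were not removed, because Scrublet (scanpy 1.11.5) marked 34 of 17696 cells, too few to have worked.

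Counts were summed per library and class, and organs were compared with edgeR 4.0.16 in R 4.3.3 (quasi-likelihood test, TMM, filterByExpr, Benjamini-Hochberg over all genes tested). The standard error is the log2 difference divided by the square root of F. DESeq2 1.42.0, other scaling, no filter, the replicate block, other resolutions, a 10% mitochondrial limit and leaving out each library were alternatives. The scripts were tested on simulated counts. The 2 comparisons of supporting-like cells and of hair cells without outer hair cells, and the sum without 2 vestibular clusters, were added after the data were seen. The members and gene lists were chosen with earlier results of these data known. Of the anchoring and volume lists, up to 3 genes in each direction with the largest change past the threshold and no overlap of libraries are named, and some of these are not reported here. Other aquaporins are named from 10 CPM. Labels do not say which animals the libraries share, if any. Shares were thinned to 1000 UMIs per cell, and zero counts carry the limit that 3 counts set.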

Additional observations from a re-analysis of the deposited data

Results flagged for a closer look

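Of 58 groups of a member and a population with 4 libraries, 8 held a library far from the other 3 by Dixon's 95% criterion. Its rate of 1 in 20 by chance holds for normal values. These are levels from counts, some of them 0, in groups that share cells, so that rate does not apply. In the cochlea, Aqp4 was low in the Gm48242 Fbp2 cells of replicate 1 (41.4 CPM from 10 cells, nearest other library 92.5), low in the Pcdh17 Agr2 cells of replicate 3 (238.6 CPM, nearest 307.8) and high in the Vmo1 Otx2 epithelial cells of replicate 1 (259.7 CPM, nearest 5.72), a class whose Aqp4 level was 0 at clustering resolution 2. Aqp5 was high in the Pcdh17 Agr2 cells of cochlear replicate 1 (10.6 CPM, nearest 3.51). In the vestibule, Aqp11 was high in the Abca13 Slc26a4 cells of replicate 3 (24.1 CPM, the others 0), Aqp1 in the barrier-like fibroblasts of replicate 3 (136.5 CPM, nearest 14.6), where 15 of the 19 UMIs of the class lay in 2 cells, and Aqp4 in the mixed Tectb Corin cells of replicate 1 (42.0 CPM, nearest 23.3). Over all kept vestibular cells, Aqp5 was high in replicate 3 (18.4 CPM, nearest 3.12), the library that alone holds the Bpifa1 Cxcl5 cells.

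The organ difference of Aqp1 in Vmo1 Otx2 epithelial cells was set against that in fibrocyte-like cells because the directions were opposite. The difference between them was -6.55 on the log2(CPM + 1) scale (exact two-sided permutation test, p = 0.0286, adjusted over 3 tests 0.0857). The raw p is the smallest that 4 against 4 libraries allow, so this design could not have given a lower one.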

How the results depend on the processing

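Of 300 alternatives to 23 results, 286 kept the direction and the side of the threshold, or moved a level by less than the spread between libraries. Some of them returned the same cells, as the other resolutions did for HCs, and so could not differ. Settings in which a gene did not enter the fit are not among the 300. The changes follow. Leaving out 1 library at a time gave -1.08 to -0.55 for Aqp1 over all kept cells (past the threshold only without vestibule replicate 3, edgeR adjusted p = 0.0256), 1.43 to 2.10 for Aqp4 (missed only without vestibule replicate 4), and -1.53 to 0.45 for Aqp5, which turned to 0.36 also without the Bpifa1 Cxcl5 and AU040972 Ccdc153 cells. Aqp1 in erythroid-like cells ranged from -2.14 to -0.71 over left-out libraries, and passed the threshold without cochlea replicate 1, with fewer than 10% mitochondrial UMIs (-2.06, adjusted p = 0.0227), at resolution 0.5 (-1.82, adjusted p = 0.0236) and with the replicate number as a block (-2.004, adjusted p = 0.0127). Aqp4 in supporting-like cells ranged from -0.95 to -0.74, missing the threshold without cochlea replicate 3 (adjusted p = 0.0736) or 5 (adjusted p = 0.0567), at -0.56 with fewer than 10% mitochondrial UMIs, and at -0.71 without the filter on low counts. Aqp11 in HCs was 0.43 without OHCs. The Aqp11 level of cochlear HCs was 360.0 CPM as a mean of each cell's own CPM against 148. The Aqp4 level of cochlear Vmo1 Otx2 cells, whose spread between libraries is wide, went from 66.4 CPM to 0 at resolution 2 and 1.91 without replicate 1. Likewise the Aqp1 level of cochlear erythroid-like cells went from 127 CPM to 29.0 at resolution 0.5 and 27.3 with fewer than 10% mitochondrial UMIs. In both settings 2 libraries entered. Aqp5 in fibrocyte-like cells was fitted under 10 alternatives, and did not enter the fit at resolution 0.5 or 2, with fewer than 10% mitochondrial UMIs, without cochlea replicate 3, 4 or 5, or without vestibule replicate 3. The causes were not tested. Scaling by total UMIs in place of TMM moved the median difference of all genes to 0.91 in erythroid-like, 0.42 in fibrocyte-like and 0.29 in fibroblast-like cells, and no member's difference changed sign.

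By the limit of 0.1 the replicate numbers were not taken to pair the samples: same-numbered libraries of the 2 organs deviated together with correlations of 0.0491 to 0.349 over all kept cells, 0.0814 to 0.299 in supporting-like cells, 0.0258 to 0.191 in HCs and 0.0760 to 0.108 in fibrocyte-like cells, and in no comparison of 4 pairs was every one above 0.1. In the last 3 each cochlear library correlated best with its own number, which is a hint from the data and not from the design. The replicate block changed no other call on a member. Counts of genes called over all genes moved by more than 1.5 times in these cases. In Vmo1 Otx2 cells 80 genes became 371 without the filter on low counts, 160 at resolution 2 and 146 without cochlea replicate 1. In erythroid-like cells 239 became 135 with DESeq2, 514 without the filter, 433 with the block, 413 with fewer than 10% mitochondrial UMIs, 566 at resolution 0.5, 864 without cochlea replicate 1 and 41 without cochlea replicate 3. In fibrocyte-like cells 2077 became 3340 without the filter, and in supporting-like cells 1784 became 3187 without it and 892 with fewer than 10% mitochondrial UMIs. Depth limits Aqp5, which had fewer than 10 UMIs in most populations.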

Other observations

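The other 8 aquaporin genes were sparse, and none had enough counts to enter an organ comparison. Aqp3, which passes glycerol as well as water, was the one with a clear place. In the cochlear Trdv4 Cd163l1 cells, led by gamma-delta T cell receptor genes (Trdc, Tcrg-C1 and Tcrg-V6), it stood at 52.3 and 90.4 CPM in replicates 1 and 3 (71.3 ± 26.9, n = 2), with a UMI in 19 of 121 cells. Vestibular T-like cells, whose leading genes also hold Trdv4 and Cd163l1, stood at 91.9, 0 and 35.7 CPM in replicates 3, 4 and 5 (42.5 ± 46.3, n = 3), so replicate 4 had none. The Bpifa1 Cxcl5 cells of vestibular replicate 3 held 50.3 CPM of Aqp3 beside their Aqp4 and Aqp5. Aqp9, a channel for glycerol and other small solutes, stood at 10.8, 17.9 and 12.4 CPM in vestibular granulocyte-like cells (13.7 ± 3.73, n = 3). Aqp2 reached 16.6 ± 14.4 CPM in vestibular myelinating glia-like cells from 2 UMIs in all.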
